A study of Mus musculus with 19 samples.

Results

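The ion channels of islet cells were read in isolated islets of 2 inbred mouse strains kept in low or high glucose. Probes were taken by gene name: names that start with Kcn, Cacna, Cacnb, Cacng, Trpm, Trpc or Clcn, or with Scn or Hcn and a digit, and Abcc8 and Abcc9. Of 222 such probes for 145 gene names on the array, 153 probes for 112 names were well above background in Cy5 in at least 4 mice, as were 29329 of all 41174 probes. The other 69 probes, 29 of them above background in no mouse, were not tested. The detection rule left 1 probe at exactly 4 mice (Cacna1g) and 9 probes just outside it at 3 mice. Of the 153 probes, 106 were above background in all 19 mice. Names are not functions: 2 of the 153 probes are for Kcnq1ot1, a non-coding RNA that overlaps a channel gene, and 5 are for Trpc4ap, an adaptor protein of Trpc4. The remaining 146 probes for 110 names are counted as channel subunits by name, and they include exchangers of the Clcn family such as Clcn4-2.

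Islets came from 12-week-old male C57BL/6J (B6) and C57BLKS/J (BLKS) mice. They were kept for 48 h in 11 mM glucose and then for 24 h in 5 mM (low) or 20 mM (high) glucose. The groups were 5 B6 and 5 BLKS mice in low glucose and 5 B6 and 4 BLKS mice in high glucose, and the islets of each mouse were cultured and extracted apart. None of the mice was diabetic. Portions of 200 ng RNA per mouse received Cy3 or Cy5, and a B6 and a BLKS mouse of the same number and glucose were hybridised together on a pair of arrays with the dyes exchanged, except that B6 high glucose 5 shared its pair with B6 low glucose 1. Apart from that pair, low and high glucose were on different arrays, while the strains shared arrays. A glucose difference therefore cannot be told apart from one between these sets of arrays. Values are log2 processed intensities averaged over the dyes of a mouse, and a difference of 1 on this scale is a doubling. Negative control spots had a log2 median signal of 5.67 to 5.87 in Cy5 over the arrays, and no background had been subtracted, so that differences of dim probes are compressed. Levels of different probes cannot be set against each other. A probe is said to rise, fall or differ where the limma p, adjusted over all 29329 probes, was under 0.05.

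A pair of libraries went against their labels. On a scale of strain made from 106 probes outside the channel genes, where 0 is the mean of B6 and 1 that of BLKS mice in high glucose, the library labelled B6 low glucose 4 stood at 1.01 and that labelled BLKS low glucose 5 at -0.05, while the other 4 B6 mice in low glucose stood at -0.06 to 0.02 and the other 4 BLKS mice at 0.93 to 1.01. Both were kept under their labels, the counts of calls that use low-glucose mice are given with and without them, and the calls lost without them are named. The brightest probes of the islet hormones Ins1, Ins2, Iapp and Gcg were saturated in all 40 array channels and those of Sst in 30 and of Ppy in 23 of them, so that their levels are lower limits there, and the summed log2 level of 9 acinar markers ran from 10.54 to 11.19 over the mice.

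A beta cell converts glucose metabolism into an electrical signal. ATP closes the KATP channel, made of the pore Kcnj11 and the sulphonylurea receptor Abcc8, the membrane depolarises, voltage-gated calcium channels built around Cacna1 pores open, and calcium entry triggers insulin release. Voltage-gated and calcium-activated potassium channels then repolarise the cell, and cation channels of the Trpm and Trpc families and leak potassium channels of the Kcnk family, which have a pair of pore domains per subunit, set how easily it fires. Alpha and delta cells of the islet are electrically excitable too and share many of these channels.

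The channels differed between high and low glucose by less than a doubling over both strains. Averaged over the strains, 27 of 153 probes (24 gene names) changed, which is 17.6% of the members, against 22.3% of all probes tested. Of these 10 rose, against 10.9% of all probes, and 17 fell, against 11.4%. The median difference of the 153 was -0.015 on the log2 scale, and that of all probes -0.0039. Kcnk1 rose most (0.45 ± 0.05, SE), and Trpm5 (-0.65 ± 0.10) and Trpm2 (-0.44 ± 0.07) fell most. With the mice that shared arrays as a random block, 11 of the 27 calls remained, against 13.0% of all probes: Kcnk1, Trpc4, Trpm5, Trpm2, Scn4a, Kcnab3, Kcnip4, Cacna1d, Kcnmb2 and 2 Trpc4ap probes. Without both libraries that stood apart there were 32 calls (21.9% of all probes), of which 26 were among the 27. The 6 gained were Cacnb1 (-0.42), Kcnk16 (0.25), Kcnj12 (-0.16), Kcnj4 (-0.13), Cacnb3 (-0.12) and a Trpc4ap probe (0.11), and the one lost was Trpc1. Leaving out any 1 mouse kept 16 of the 27, and each of the other 11, the largest of them Kcnh1 at 0.18, held in 4 to 18 of the 19 fits. Without scaling between arrays there were 26 calls, 4 up and 22 down, against 17.8% of all probes, 4.81% up and 12.9% down. In whole islets, fewer cells of a type and less RNA per cell cannot be told apart.

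**Figure D1:**
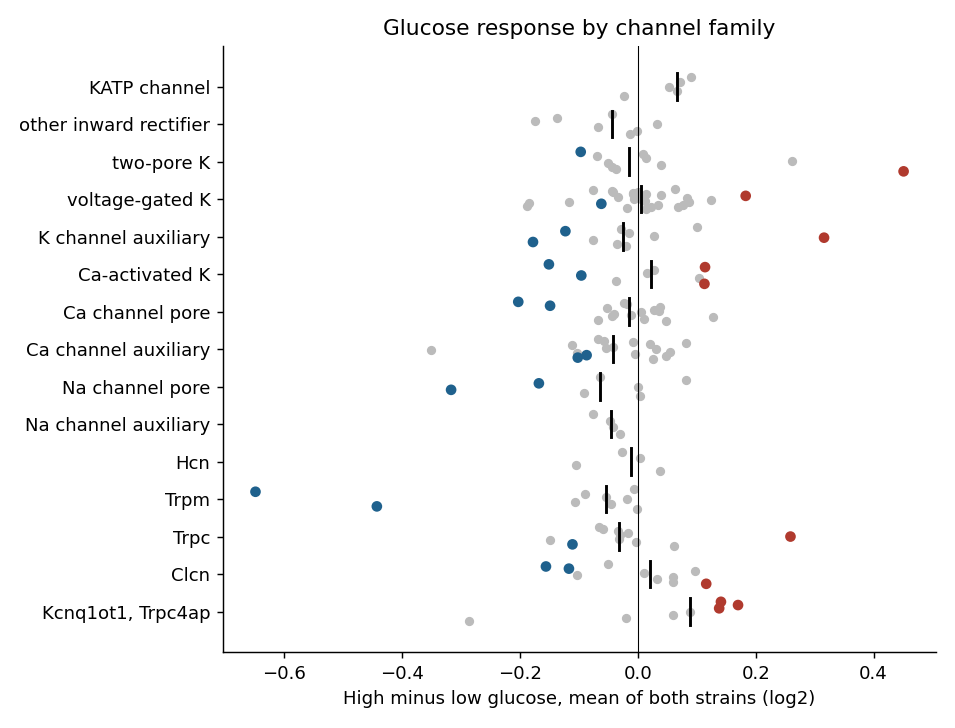
Each point is 1 probe, and the horizontal axis gives its high minus low glucose difference averaged over B6 and BLKS on the log2 scale, by channel family. Red points rose and blue points fell at an adjusted p under 0.05, grey points did not pass, and black bars are family medians. The Trpm family holds the lowest points, Trpm5 at -0.65 and Trpm2 at -0.44, and the Kcnk family the highest, Kcnk1 at 0.45, while none of the KATP probes is coloured.

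Beside these, markers of cell types moved as well. Of 8 beta cell markers tested, 4 fell with glucose over both strains and 3 without both libraries that stood apart (Slc2a2 by 0.57, Ucn3 by 0.59, Nkx6-1 by 0.25 and, lost in the latter, Mafa by 0.18). Ins1, Ins2 and Iapp among the 8 were saturated, so that no change of theirs could be read. Of 5 endothelial markers 4 fell (Kdr by 0.30, Flt1 by 0.28, Plvap by 0.28 and Cdh5 by 0.18). None of 5 fibroblast, none of 6 Schwann and nerve, none of 2 delta (one of them the saturated Sst) and none of 2 duct markers passed the test. Of 5 alpha markers, the saturated Gcg among them, 1 fell, as did Lyzs of 5 macrophage markers and Ctrb1 of 9 acinar markers. The summed level of the 5 endothelial markers per mouse was 10.55 to 11.05 in low and 10.29 to 10.74 in high glucose. Their part in the channel results was not tested.

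Upstream sequence is shown, as context, for the 4 channel genes with the largest change over both strains among those with 1 transcript start in the table used. Kcnk1 and Trpc4 rose, and Trpm5 and Trpm2 fell. Each line gives the 250 bases before the start, 5′ to 3′, from RefSeq on GRCm38.p6. Capitals mark a GC box (GGGCGG), an E-box (CACGTG), a cAMP response element (TGACGTCA), a TATA box (TATAAA) or a CCAAT box (CCAAT), on either strand, and no matches overlap there. The windows are chr7:143094643-143094892 on the minus strand for Trpm5, chr8:125994852-125995101 on the plus strand for Kcnk1, chr10:77969873-77970122 on the minus strand for Trpm2 and chr3:54155807-54156056 on the plus strand for Trpc4.
Trpm5: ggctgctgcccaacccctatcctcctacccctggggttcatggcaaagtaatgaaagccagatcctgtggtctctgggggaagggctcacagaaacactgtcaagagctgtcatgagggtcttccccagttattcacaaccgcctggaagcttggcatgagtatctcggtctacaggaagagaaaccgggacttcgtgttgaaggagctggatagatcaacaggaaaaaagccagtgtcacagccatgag
Kcnk1: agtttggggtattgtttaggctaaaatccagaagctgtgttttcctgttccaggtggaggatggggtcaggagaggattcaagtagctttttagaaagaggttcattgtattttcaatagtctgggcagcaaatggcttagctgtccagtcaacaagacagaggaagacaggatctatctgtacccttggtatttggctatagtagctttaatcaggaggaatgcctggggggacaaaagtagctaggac
Trpm2: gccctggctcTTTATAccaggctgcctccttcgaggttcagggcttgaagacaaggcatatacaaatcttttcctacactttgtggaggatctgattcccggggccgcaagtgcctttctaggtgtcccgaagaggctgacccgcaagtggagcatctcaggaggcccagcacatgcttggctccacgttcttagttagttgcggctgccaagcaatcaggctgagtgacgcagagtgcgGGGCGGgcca
Trpc4: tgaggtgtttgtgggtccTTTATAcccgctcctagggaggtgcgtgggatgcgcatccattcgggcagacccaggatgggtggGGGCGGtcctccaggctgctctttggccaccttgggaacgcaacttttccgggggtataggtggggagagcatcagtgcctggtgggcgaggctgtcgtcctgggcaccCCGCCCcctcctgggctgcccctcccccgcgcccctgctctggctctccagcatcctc

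Trpm5 and Kcnk1 held none of the 5 motifs in this window, Trpm2 held 1 GC box and 1 TATA box, and Trpc4 held 2 GC boxes and 1 TATA box. Among all 32851 windows 32.7% held a GC box, 6.02% an E-box, 1.55% a cAMP response element, 12.4% a TATA box and 33.8% a CCAAT box. Of 23 channel genes that changed with glucose over both strains, 19 had windows, 22 in all, of which 11 held a GC box, 3 a TATA box, 5 a CCAAT box and 0 an E-box or a cAMP response element. A match describes letters and no bound site.

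Trpm5, a calcium-activated monovalent cation channel of taste and beta cells, fell by 0.65 ± 0.10 over both strains (adjusted p = 0.000106), to 1.57-fold lower. In B6 it read 8.55, 8.71, 8.59, 8.71 and 8.65 in low and 8.36, 8.1, 8.16, 8.53 and 8.27 in high glucose. In BLKS it read 8.57, 8.82, 8.70, 8.58 and 8.64 in low and 7.44, 7.45, 8.42 and 7.60 in high glucose. In each strain every high-glucose mouse was below every low-glucose mouse, and BLKS high glucose 3 lay within the range of the B6 mice in high glucose. The fall in BLKS was 0.93 ± 0.14 (1.91-fold, adjusted p = 0.00033), and the B6 difference of -0.36 ± 0.14 did not pass (adjusted p = 0.112). Without BLKS high glucose 3 the BLKS difference was -1.17.

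Trpm2, a calcium-permeable channel opened by ADP-ribose and oxidative stress, showed the largest fall in B6, by 0.61 ± 0.10 (1.53-fold, adjusted p = 0.000573). The B6 mice read 7.76, 7.76, 7.47, 7.87 and 8.03 in low and 7.20, 7.11, 7.10, 7.10 and 7.31 in high glucose, without overlap. The BLKS mice read 7.88, 7.77, 7.71, 7.66 and 7.61 in low and 7.25, 7.55, 7.76 and 7.24 in high glucose, where 1 high-glucose mouse lay among the low-glucose mice. The BLKS difference was -0.27 ± 0.10 and did not pass (adjusted p = 0.106). The other 7 Trpm probes did not change with glucose over both strains. Among them were both probes of Trpm4, the close relative of Trpm5 in gating by calcium, at -0.11 (adjusted p = 0.0544) and -0.05.

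Kcnk1 (TWIK-1), a double-pore potassium channel, rose in both strains, under the labels as given by 0.46 ± 0.07 in B6 (1.37-fold, adjusted p = 0.000379) and by 0.45 ± 0.07 in BLKS (1.36-fold, adjusted p = 0.000662). It read 9.01, 8.92, 8.93, 8.61 and 8.80 in B6 low glucose, 9.25, 9.31, 9.29, 9.25 and 9.46 in B6 high glucose, 8.59, 8.56, 8.71, 8.77 and 8.87 in BLKS low glucose and 9.12, 9.24, 9.06 and 9.15 in BLKS high glucose. High and low glucose did not overlap in either strain, and the difference between the strains' responses was -0.01 ± 0.10. That likeness includes the libraries that stood apart, B6 low glucose 4 at 8.61 and BLKS low glucose 5 at 8.87. The other 4 B6 mice in low glucose had a mean of 8.92 and the other 4 BLKS mice one of 8.66. Of the other Kcnk members, Kcnk13 (THIK-1) fell by 0.10 ± 0.03 over both strains, and Kcnk3, Kcnk4, Kcnk5, Kcnk6 and Kcnk12 did not pass. Kcnk16 (TALK-1), a channel known for its islet expression, differed by 0.26 ± 0.11 (adjusted p = 0.112), and passed at 0.25 without both libraries that stood apart (adjusted p = 0.0251).

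Kcnab3, an auxiliary beta subunit of voltage-gated potassium channels, rose in B6 by 0.65 ± 0.08 (1.56-fold, adjusted p = 7.42e-05). The B6 mice read 6.86, 6.86, 7.05, 6.99 and 7.01 in low and 7.52, 7.57, 7.85, 7.68 and 7.38 in high glucose, well apart. The BLKS mice read 7.11, 7.02, 6.98, 6.95 and 7.22 in low and 7.0, 6.81, 7.20 and 7.16 in high glucose, intermingled, with a difference of -0.01 ± 0.09. The 2 responses differed by -0.66 ± 0.12, which missed the threshold with the groups alone (adjusted p = 0.0652) and passed with the array pair as a block, random (adjusted p = 0.000607) or fixed (adjusted p = 0.0258). Without B6 high glucose 5 it passed too (adjusted p = 0.0304).

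Trpc4, a receptor-operated cation channel, rose in BLKS by 0.41 ± 0.05 (1.33-fold, adjusted p = 7.69e-05). The BLKS mice read 7.20, 7.03, 7.01, 7.04 and 6.82 in low and 7.45, 7.39, 7.38 and 7.50 in high glucose, and the B6 mice 7.0, 6.95, 6.96, 7.12 and 6.98 in low and 7.10, 7.12, 7.08, 7.11 and 7.15 in high glucose. All BLKS high-glucose mice were above all other mice. The B6 difference of 0.11 ± 0.05 did not pass (adjusted p = 0.235), and passed without both libraries that stood apart (0.14, adjusted p = 0.0297). The responses of the strains differed by 0.30 ± 0.07 (adjusted p = 0.351; 0.0159 under the random and 0.141 under the fixed block). Of 3 Trpc1 probes, 1 fell over both strains, by 0.11 ± 0.04, and did not pass without both libraries that stood apart (-0.10).

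**Figure D2:**
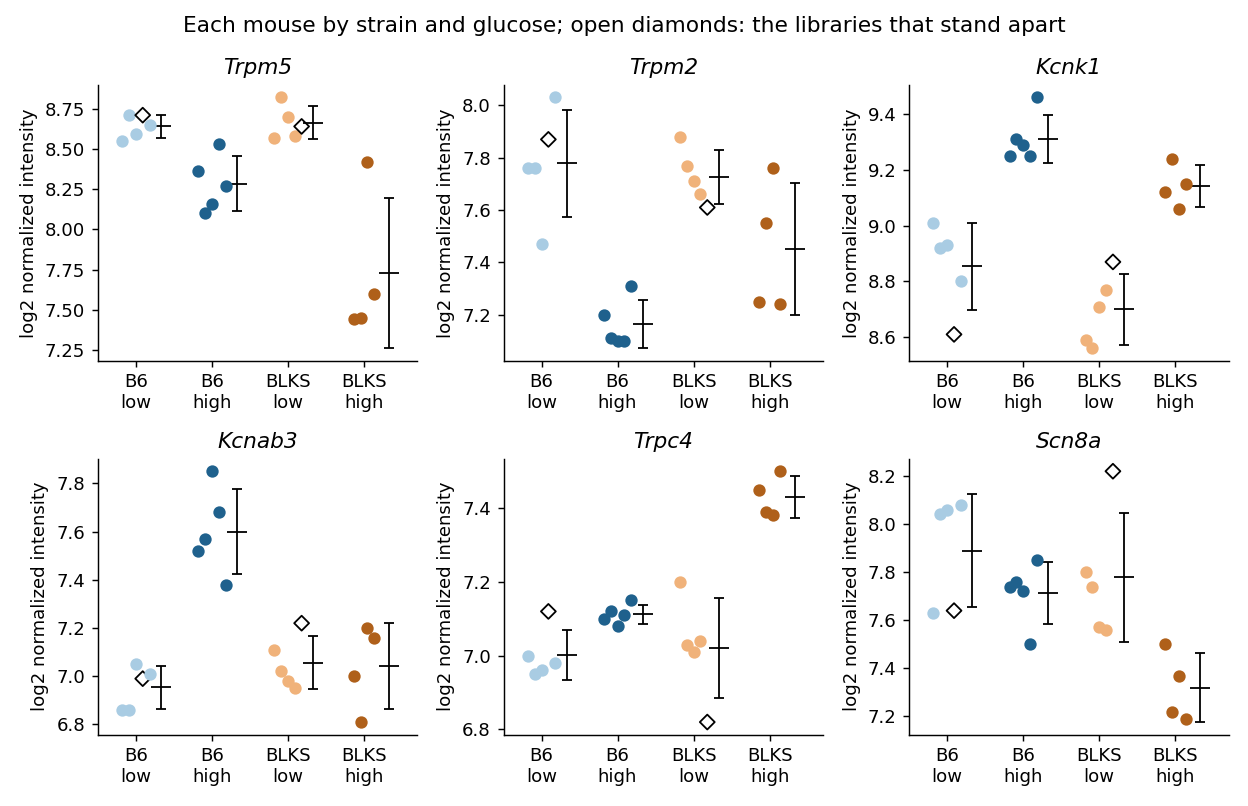
Each panel plots 1 probe on the log2 normalized intensity axis, with a point per mouse in the 4 groups and bars for mean ± SD. Trpm5 lies lowest in BLKS high glucose, with 1 mouse at 8.42, Kcnab3 is high in B6 high glucose alone, and Kcnk1 steps up in each strain. Open diamonds are the 2 libraries that stood apart (B6 low glucose 4, BLKS low glucose 5).

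Of 16 probes of calcium channel pores 2 fell with glucose over both strains, and of 7 probes of sodium channel pores 2 fell, against 11.4% of all probes. The brightest probe of Cacna1d, the L-type pore Cav1.3, fell by 0.15 ± 0.03 (1.11-fold, adjusted p = 0.00129). It read 8.23, 8.25, 8.12, 8.21 and 8.13 in BLKS low glucose and 8.03, 7.95, 8.04 and 8.01 in BLKS high glucose, without overlap, and in B6 7.98, 8.11, 8.18, 8.22 and 8.11 against 7.98, 8.04, 8.0, 8.03 and 7.96. The other 2 Cacna1d probes differed by -0.02 and -0.04 and did not pass. Cacna1s, the L-type pore of skeletal muscle, fell by 0.20 ± 0.06, and the Cacna1a, Cacna1b, Cacna1c, Cacna1f, Cacna1g and Cacna1h probes did not pass. Cacna1e had no probe above background in 4 mice.

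Scn8a, the neuronal sodium pore Nav1.6, fell by 0.32 ± 0.09 at its brighter probe (1.25-fold, adjusted p = 0.0126), while the dimmer one differed by -0.07, and the call was lost with the random block (adjusted p = 0.0829). In BLKS the brighter probe read 7.80, 7.74, 7.57, 7.56 and 8.22 in low and 7.50, 7.22, 7.37 and 7.19 in high glucose, without overlap (-0.46 ± 0.13). That BLKS call was lost without BLKS low glucose 5 (-0.35), BLKS high glucose 2 (-0.42) or BLKS high glucose 4 (-0.41). Scn4a, the sodium pore of skeletal muscle, fell in B6 by 0.19 ± 0.04 and in BLKS by 0.14 ± 0.04, and the BLKS call was lost without both libraries that stood apart (adjusted p = 0.0897). Scn3a and Scn9a, which are known from islets, had no probe above background in 4 mice.

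Among accessory subunits other than Kcnab3, Kcnip4, a calcium-binding partner of Kv4 pores, fell by 0.18 ± 0.03 at its brighter probe, from 7.89, 7.90, 7.87, 7.91 and 7.88 in BLKS low to 7.53, 7.76, 7.63 and 7.55 in BLKS high glucose, without overlap. Its B6 mice lay between 7.81 and 8.0 in low and between 7.74 and 7.92 in high glucose and overlapped. Of the calcium channel auxiliary subunits, 1 of 3 Cacna2d2 probes (-0.10 ± 0.04) and 1 of 2 Cacna2d1 probes (-0.09 ± 0.03) fell, and the Cacnb1 (-0.35 ± 0.14), Cacnb2 and Cacnb3 (-0.11 ± 0.07) probes did not pass. Kcne1, which slows Kcnq1, fell by 0.12 ± 0.04. Scn3b, a sodium channel beta subunit, did not pass.

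Of the calcium-activated potassium channels, Kcnma1, the large-conductance BK pore, rose by 0.11 ± 0.04, Kcnn3 (SK3) rose by 0.11 ± 0.03, and Kcnmb2, a BK beta subunit that inactivates the pore, fell by 0.15 ± 0.04. Kcnma3, now named Kcnu1 and grouped with them by its array name alone, fell by 0.10 ± 0.03. Of 28 probes of voltage-gated potassium pores, Kcnh1 rose by 0.18 ± 0.06, Kcna4 fell by 0.06 ± 0.02, and the other 26 did not pass. The Kcna4 probe was well above background in only 5 of the 19 mice, so that its call lies near background. Both probes of the chloride channel Clcn2 fell (by 0.16 and 0.12), and Clcn4-2, now Clcn4, an endosomal exchanger, rose by 0.12 ± 0.04. None of 4 Hcn probes passed. Outside the channels, 3 of 5 Trpc4ap probes rose, by 0.14 to 0.17.

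The KATP channel pair Kcnj11 and Abcc8 had no call in the 6 comparisons with the groups alone. The Abcc8 probe read 14.23, 14.32, 14.66, 14.45 and 14.47 in B6 low, 14.41, 14.46, 14.45, 14.55 and 14.49 in B6 high, 14.16, 14.49, 14.25, 14.19 and 14.42 in BLKS low and 14.38, 14.41, 14.47 and 14.48 in BLKS high glucose. All 4 groups overlapped, and the glucose difference over both strains was 0.09 ± 0.05 (adjusted p = 0.233). No channel probe was saturated in any of 40 array channels. Kcnj11 read 8.05 to 8.24 in B6 low, 7.84 to 8.1 in B6 high, 8.03 to 8.14 in BLKS low and 8.06 to 8.21 in BLKS high glucose, with a difference of -0.02 ± 0.04 over both strains. In high glucose Kcnj11 differed between the strains by 0.12 ± 0.05 (adjusted p = 0.158), with BLKS above B6 by 0.22, 0.14, 0.14 and 0.06 in the 4 array pairs, and passed with the pair as a random (adjusted p = 0.0101) or fixed (adjusted p = 0.0186) block. The vascular forms Kcnj8 and Abcc9 differed by 0.07 ± 0.10 and, at 2 probes, by 0.05 ± 0.04 and 0.07 ± 0.03. Outside the members, Slc2a2, the glucose transporter of beta cells, fell by 0.57 over both strains. Of 37 genes tested from a list of glucose sensing and calcium handling, 4 rose, against 10.9% of all probes, and 8 fell, against 11.4%. Those that fell also include the calcium pump Atp2a2 (by 0.27) and the calmodulin gene Calm2 (by 0.21), and those that rose are not named. On that list 1 rose and 2 fell in B6 (9.5% of all probes passed there), and 1 rose and 5 fell in BLKS (11.6%). In high glucose 1 was higher and 3 were lower in BLKS (11.1%). None passed for strain in low glucose or for the difference between responses. Without both libraries that stood apart, 3 were higher and 3 lower in BLKS in low glucose, against 7.06% and 8.57% of all probes.

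Within each strain, 5 of 153 probes (3.27%) passed in B6 against 9.5% of all probes, with 2 up against 5.43% and 3 down against 4.06%. In BLKS 12 passed (7.84%) against 11.6%, with 5 up against 6.53% and 7 down against 5.06%. Kcnk1 and Scn4a were the 2 probes called in each strain. Without scaling between arrays, 2 rose and 5 fell in B6, against 5.47% of all probes, 1.9% up and 3.57% down. At that setting 2 rose and 7 fell in BLKS, against 7.33% of all probes, 2.3% up and 5.03% down. Groups did not overlap for 6 probes in B6 (7.45% of all probes) and 10 in BLKS (13.3%). Without both libraries that stood apart there were 9 calls in B6 (12.2% of all probes) and 11 in BLKS (9.86%), where 8 of the 12 calls were among them and Kcnn3, Kcnma1, Scn4a and Trpc1 were lost. All 5 calls in B6 were among the 9. The BLKS count fell to 7 without BLKS high glucose 2 and to 6 without BLKS high glucose 4. Of 5 fibroblast markers Pdgfra rose in B6 (by 0.175) and none did in BLKS, with medians of 0.542 and -0.025, and without both libraries none passed in B6 (median 0.408). Their summed level ran from 10.96 to 11.85 in B6 low and from 11.61 to 12.70 in B6 high glucose, and from 10.76 to 11.28 in BLKS low and from 10.35 to 11.55 in BLKS high glucose. Their part in the B6 results, Kcnab3 among them, was not tested. A call in one strain does not show a difference between strains: tested directly, 0 of 153 probes passed, against 0.0409% of all probes, with 9 at an unadjusted p under 0.05. The block gave 2 (Kcnab3 and Trpc4, against 0.798%) as random and 1 (Kcnab3, against 0.16%) as fixed, and Trpm5 alone passed without BLKS high glucose 3 (-0.80). With both libraries that stood apart left out 0 passed, against 0.058%. In BLKS the block left out Cacna1s (adjusted p = 0.0803) and Trpc1 (adjusted p = 0.156) and kept the other 10 calls.

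**Figure D3:**
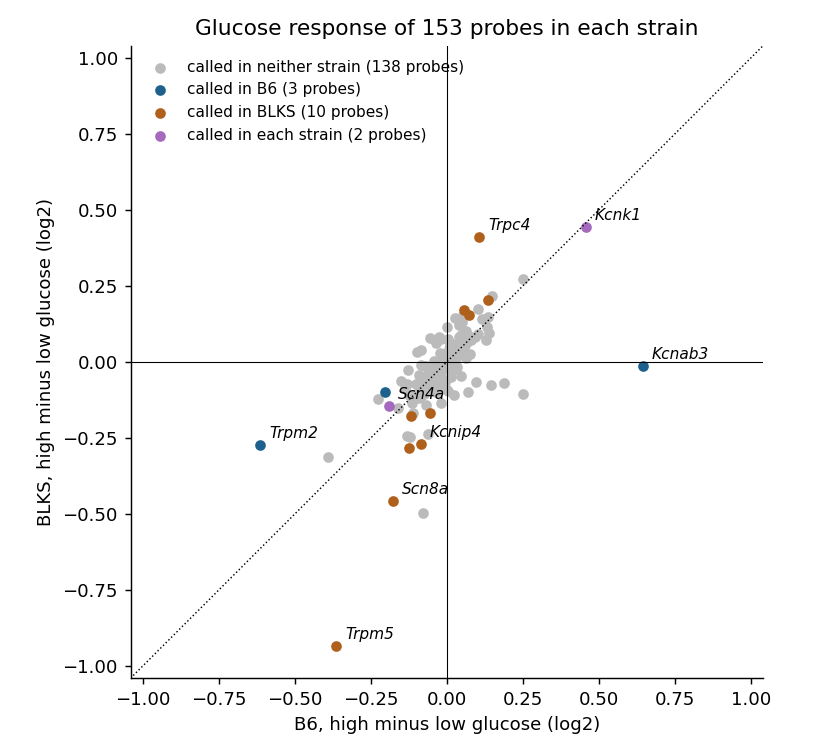
The axes give the high minus low glucose difference of each of 153 probes in B6 and in BLKS, on the log2 scale, with the dotted line at equal responses. Colours tell in which strain the adjusted p was under 0.05. Kcnk1 lies on the line at 0.46 and 0.45, Kcnab3 on the horizontal axis at 0.65 and -0.01, and Trpm5 lies far below the line at -0.36 and -0.93.

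In high glucose the strains differed in 15 probes, which is 9.80% of the members against 11.1% of all probes. In BLKS 8 were higher, against 4.99% of all probes, and 7 lower, against 6.12%. Among potassium channels and their partners, Kcnab3, Kcnh8, Kcnip4 and Kcnn2 were lower, and Kcnk12, Kcnma1, Kcnn1 and Kcnn3 were higher in BLKS. With the array pair as a block the counts were 32 (random; 25.2% of all probes) and 23 (fixed; 20.0%), and all 15 were among each. There were 23 without both libraries that stood apart (15.3% of all probes). Without scaling between arrays, 6 passed, 2 higher and 4 lower, against 5.36% of all probes, 1.96% higher and 3.39% lower. The strains did not overlap for 23 probes, against 14.4% of all probes.

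Kcnab3 was lower in BLKS by 0.56 ± 0.09 (1.47-fold, adjusted p = 0.00143), as its values above show, with pair differences of -0.52, -0.76, -0.65 and -0.52. Trpm5 was lower by 0.55 ± 0.14 (adjusted p = 0.0201), but in 3 of 4 pairs only: BLKS minus B6 was -0.92, -0.65, 0.27 and -0.92. That call was lost without BLKS high glucose 1 (-0.45), BLKS high glucose 2 (-0.46), B6 high glucose 4 (-0.49) or BLKS high glucose 4 (-0.51). Kcnip4 was lower by 0.21 ± 0.05.

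Trpc4 was higher in BLKS by 0.32 ± 0.05 (1.25-fold, adjusted p = 0.00213), with no overlap and pair differences of 0.35, 0.27, 0.30 and 0.39. Kcnk12 (THIK-2), a Kcnk subunit, was higher by 0.23 ± 0.05 (adjusted p = 0.00531), from 7.48, 7.42, 7.60, 7.34 and 7.44 in B6 to 7.74, 7.60, 7.72 and 7.69 in BLKS. The brighter probe of Cacna1c, the L-type pore Cav1.2, was higher by 0.21 ± 0.05, from 6.91, 6.86, 6.92, 6.84 and 6.94 in B6 to 7.14, 7.12, 7.10 and 7.04 in BLKS, without overlap, while the dimmer one differed by 0.03 and did not pass. The Cacna1c call was lost without BLKS high glucose 1 (0.19). The calcium-gated potassium channels Kcnma1 (0.17), Kcnn1 (SK1, 0.16) and Kcnn3 (0.18) and 1 of 2 Trpm4 probes (0.20) were higher too.

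For 3 of the 15 probes 1 strain was well above background in no high-glucose mouse and in 1 low-glucose mouse. They met the detection rule through the other strain, so that their calls are a description. In Cy5, Trpc7 was at least 1.10-fold higher in BLKS and Trpm3, a steroid-sensitive channel of beta cells, at least 1.15-fold higher in B6. Kcnn2 (SK2) read 6.26 in B6 and 6.05 in BLKS in Cy5, and the strains overlapped when the dyes were averaged. The bound sets the bright group's Cy5 mean against the lowest signal called well above background on each array of the dim group. Kcnh8, a voltage-gated potassium pore, was lower in BLKS by 0.23 ± 0.06. Of the 15 calls 7 held with any 1 mouse left out, and Trpm5, Cacna1c, Kcnma1, Kcnn1, Kcnh8, Trpm3, Trpm4 and Trpc7 in 11 to 18 of the 19 fits.

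The mice of the 2 strains differed in markers as well in high glucose. Of 5 fibroblast markers 4 were lower in BLKS (Col1a1 by 1.34, Col1a2 by 1.05, Col3a1 by 0.95 and Pdgfra by 0.27), and their summed level ran from 11.61 to 12.70 in B6 and from 10.35 to 11.55 in BLKS. Of 5 endothelial markers 3 were lower, with a summed level of 10.50 to 10.74 in B6 and 10.29 to 10.47 in BLKS. Of 8 beta cell markers, the saturated Ins1, Ins2 and Iapp among them, 1 was lower (Slc2a2 by 0.59). Of 5 macrophage markers Lyzs was lower (by 0.76), with a summed level of 11.10 to 11.72 in B6 and 10.69 to 11.07 in BLKS, of 6 Schwann and nerve markers 1 was lower, and of 9 acinar markers Ela1 was higher (by 0.74). Their part in the channel results was not tested.

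In low glucose, under the labels as given, 0 of 153 probes differed between strains, with 20 at an unadjusted p under 0.05, against 0.0% of all probes and 4713 of 29329 at that unadjusted p. The array pair as a block called 15 (random; 16.1% of all probes) and 5 (fixed; 8.04%). Both blocks include the pairs numbered 4 and 5, whose mice stood alike on the scale of strain. B6 and BLKS low glucose 4 both stood at 1.01 there, and B6 and BLKS low glucose 5 at -0.06 and -0.05. Without both libraries that stood apart, 22 probes passed, against 15.6% of all probes, with 10 higher in BLKS against 7.06% and 12 lower against 8.57%. Among the 22, Kcnab1, Trpc7, Trpm1 and both Trpm3 probes met the detection rule through the strain where they were higher. The other strain had at most 1 mouse above background in either glucose, so that these calls are a description. In that fit 2 of 5 endothelial markers were lower in BLKS (Kdr by 0.43 and Cdh5 by 0.26), as was 1 each of the beta (Ucn3 by 0.48), alpha (Slc7a2 by 0.30), macrophage (Lyzs by 0.58) and Schwann and nerve markers, while acinar Ela1 (by 0.76) and duct Sox9 (by 0.195) were higher, and their part in the channel results was not tested. Under the labels the strains did not overlap for 2 probes, against 1.21% of all probes. These were 1 of 2 Clcn3 probes (0.125 ± 0.06) and Kcnk12 (0.16 ± 0.04). The other Clcn3 probe went the other way, with BLKS minus B6 at -0.35, -0.05, -0.23, -0.01 and -0.01 in the 5 array pairs. Without B6 low glucose 4 alone there were 10 calls, and without BLKS low glucose 5 alone 12. These counts stand without the share of all probes, so that they describe these fits and nothing particular to channels. On the 22 probes, the library labelled B6 low glucose 4 lay nearer the mean of the other BLKS than of the other B6 mice for 19, that labelled BLKS low glucose 5 nearer B6 for 20, and both together for 17.

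Kcnf1, a silent Kv5.1 subunit, shows the pattern. Without the library labelled B6 low glucose 4, at 7.26, the B6 mice read 6.60, 6.57, 6.45 and 6.38. Without that labelled BLKS low glucose 5, at 6.50, the BLKS mice read 7.20, 7.08, 7.17 and 6.84. The difference was 0.31 ± 0.14 with both (adjusted p = 0.296) and 0.57 without them (adjusted p = 5.4e-05). Kcnj12, the inward rectifier Kir2.2, gave 0.22 ± 0.10 with both and 0.42 without them (adjusted p = 1.8e-05): the remaining B6 mice read 6.89, 6.80, 6.77 and 6.92 and the remaining BLKS mice 7.30, 7.23, 7.25 and 7.26, against 7.38 and 6.84 in the 2 libraries.

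Kcnk16, in the other direction, read 8.79, 8.48, 8.79 and 8.49 in the remaining B6 and 7.83, 7.79, 8.19 and 8.01 in the remaining BLKS mice, against 7.93 and 8.57 in the 2 libraries. Its difference was -0.41 ± 0.16 with both and -0.68 without them (adjusted p = 0.000313). Cacnb3, the beta3 calcium channel subunit, gave -0.21 ± 0.10 and -0.39 (adjusted p = 0.000111), from 9.20, 8.93, 9.06 and 9.18 in B6 to 8.75, 8.65, 8.75 and 8.66 in BLKS. Kcnh2, the ERG1 potassium channel, gave -0.22 ± 0.09 and -0.35 (adjusted p = 0.000901), and Kcnip1, a Kv4 partner, 0.18 ± 0.09 and 0.34 (adjusted p = 0.000183). With 4 mice a strain these 6 probes had no overlap, which 18.0% of all probes share. With both libraries kept, the random block called Kcnk16 (adjusted p = 0.0272), Cacnb3 (0.032), Kcnh2 (0.0254) and Kcnk12 (0.00484) and not Kcnf1 (0.0792), Kcnj12 (0.0565) or Kcnip1 (0.0783). That block includes the pairs of these libraries, whose mice stood alike on the scale of strain. Cacna1c (0.20), Kcnk12 (0.18) and Kcnk1 (-0.26) passed as well without both libraries, and Trpm5 (0.04) and Kcnab3 (0.07) did not. Of the 23 probes called in high and the 22 called in low glucose without both libraries, 14 were the same, which is 60.9% and 63.6% of them, against 65.1% and 63.6% over all probes.

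**Figure D4:**
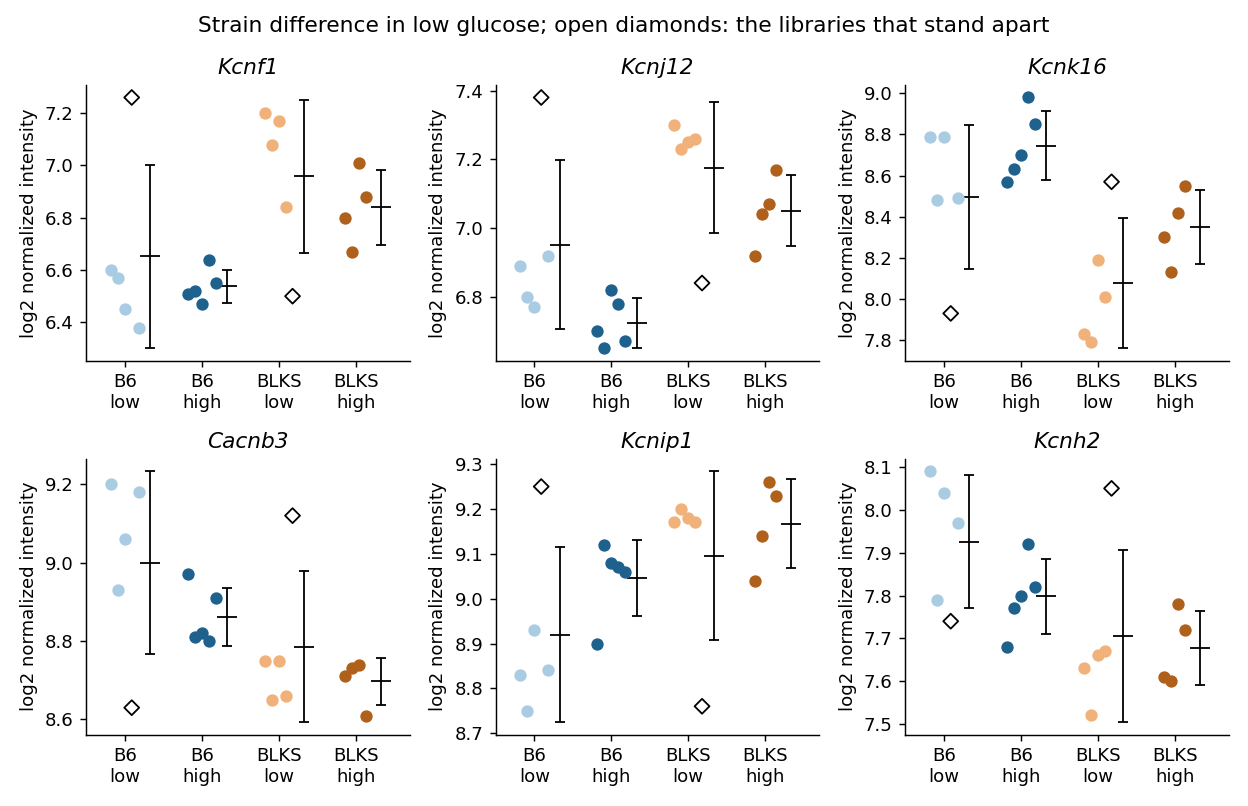
Each panel plots 1 probe on the log2 normalized intensity axis, with a point per mouse in the 4 groups and bars for mean ± SD over all labelled mice. Open diamonds are the 2 libraries that stood apart (B6 low glucose 4, BLKS low glucose 5). For Kcnf1 they stand at 7.26 and 6.50, each nearer the mice of the other strain, and likewise for Kcnj12 and Kcnk16.

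**Figure D5:**
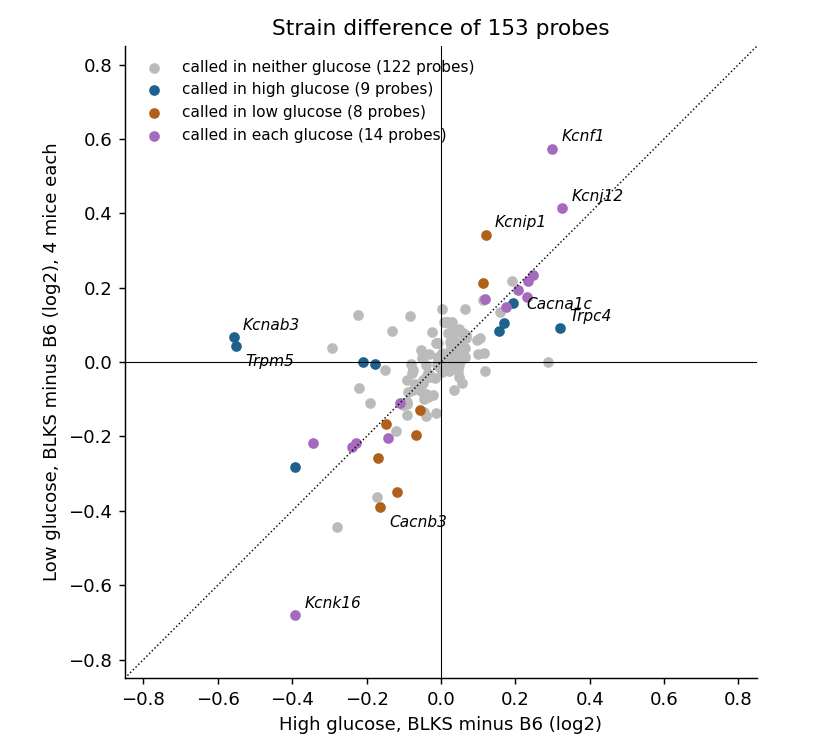
The axes give BLKS minus B6 on the log2 scale in high glucose and in low glucose for 153 probes, the low-glucose values from the 4 mice of each strain left without the libraries that stood apart. Colours show calls in that fit. Kcnk16 (-0.39 and -0.68), Kcnf1 (0.30 and 0.57) and Kcnj12 (0.33 and 0.42) lie away from 0 on both axes, while Kcnab3 and Trpm5 lie to the left near 0 in low glucose.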

How the data were processed

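Islet RNA of 19 mice was measured on 20 Agilent arrays of 2 colours, and groups came from the labels alone. Per the file headers, Agilent Feature Extraction 9.5.3.1 (8.1 in the submitters' processing notes) made the deposited intensity values, normalized linearly and by LOWESS between the dyes of an array. No background was taken off, whereas the design of the tests had counted on it. A log2 table deposited by the authors was found to hold unscaled mean signals, averaged over both dyes, and served as an alternative. Control spots and outlier spots (12 to 38 per array and dye) were dropped, Aquantile brought the arrays to 1 distribution of average intensity, and spots of a probe and dyes of a mouse were averaged. B6 low glucose 1 was on 4 arrays and counted as 1 mouse. Probes well above background in all Cy5 spots of at least 4 mice were tested. The Cy3 call was not used because it was given to a median of 83.9% of negative control spots, against 0.318% in Cy5.

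limma 3.58.1 (R 4.3.3, with version 1.17.8 of data.table) fitted the means of 4 groups, with Benjamini-Hochberg adjustment at 0.05 over all 29329 probes (29325 under the random block, which needs a value in every mouse). The methods' linear model fits strain, glucose, dye and their pairs on single dye values, without the mouse. Errors are SE of limma unless SD is named. Mice are separate samples, and the number of arrays limits precision. Pairs of mice with the same number and glucose shared arrays, and their deviations from group means correlated at 0.021 to 0.695 (median 0.482, 9 pairs), against a median of -0.007 in other pairs, so the pair served as a block. The alternatives were normexp with an offset of 50 and loess, no scaling, quantile normalization, no filter or a filter in both dyes, outlier spots kept, the authors' table, either dye, the later-scanned arrays left out, the 2 libraries that stood apart left out, and each mouse left out in turn.

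Probes named are the called ones, up to 25 per comparison, and a list of islet channel genes. Gene lists, members, marker lists and tests were chosen with earlier results of these data known. All 153 member probes were matched to RefSeq on GRCm38.p6, 118 by accession and 35 by symbol. Of these, 3 symbols have changed, and the array's names were kept. The values of a few genes are not reported here, and counts include them. The fits were tested on simulated data. Summaries used Python, numpy, pandas, scipy and matplotlib.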

Additional observations from a re-analysis of the deposited data

Results flagged for a closer look

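Among 36 probes called in any comparison, 144 groups of 4 or 5 mice were looked at for a mouse far from the rest, and 7 stood out by the gap to the nearest mouse relative to the range, where chance gives about 1 in 20 groups. The values of 6 of them follow. In BLKS high glucose, Trpm5 read 8.42 in mouse 3 against a group median of 7.53, and Trpm4 read 8.20 in the same mouse against 8.14. In B6 high glucose, Kcnk1 read 9.46 in mouse 5 against a median of 9.29. The library labelled B6 low glucose 4, which stood apart by strain, had Trpc7 at 6.22 against a median of 5.93 and Kcna4 at 6.04 against 6.09, and that labelled BLKS low glucose 5 had Cacna1c at 6.85 against 7.05.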

How the results depend on the processing

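Of 59 calls of a probe in a comparison, 18 were called under every alternative run (Kcnk1, Kcnab3, Trpc4, Trpm2 and Trpm5 among them), and 0 changed direction. The later-scanned arrays, the filters on dim probes, the outlier spots, normexp and quantile normalization moved each count of members by at most 1.5 times, except that the difference between responses had 1 call with the later arrays left out. The replicate block, with the array pair random, gave 11 for glucose over both strains, 32 for strain in high glucose, 15 for strain in low glucose and 2 for the difference between responses, and as a fixed block 23, 5 and 1 for the last 3. Without scaling between arrays, strain in high glucose had 6 calls and the difference 1. The authors' table gave 14 for glucose over both strains, 4 for glucose in BLKS and 4 for strain in high glucose. Cy5 alone gave 16 for glucose over both strains and 1 for the difference, and Cy3 alone 3 for glucose in B6 and 3 for strain in low glucose. The methods' linear model, which counts each dye value of a mouse as a sample, gave 41, 20, 22, 32, 21 and 3 in the order of glucose over both strains, in B6, in BLKS, strain in high and in low glucose and the difference. Without both libraries that stood apart, glucose in B6 had 9 calls, strain in high glucose 23 and strain in low glucose 22. Leaving out each mouse in turn gave 18 to 29 calls for glucose over both strains, 4 to 7 in B6, 6 to 13 in BLKS, 10 to 21 for strain in high glucose, 0 to 12 for strain in low glucose and 0 to 1 for the difference. Of the 59 calls, 32 held in each of the 19 fits, and the other 27 in 4 to 18 of them. The cause of these shifts was not tested. Counts in this section stand without the share of all probes at the same setting, so that they describe the settings and nothing particular to channels. Probes near background have compressed differences, and 47 of the 153 were above background in fewer than all mice.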
